A study of Homo sapiens with 6 samples.

Results

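Glucocorticoid receptor (GR) binding was examined at 4 loci, named here CD180, SULF2, HMGA2 and ALPK2, each of which carries a crowded GR-cell binding site with no peak in the MR/GR cell. The members are all peaks centred in 4 windows of the hg19 genome: chromosome 5, 66.43 to 66.65 Mb (CD180 region); chromosome 20, 46.24 to 46.47 Mb (SULF2); chromosome 12, 66.00 to 66.41 Mb (HMGA2 and upstream); and chromosome 18, 56.10 to 56.35 Mb (ALPK2 and upstream). They hold 182 of 116356 peaks. After overlapping peaks were merged, these made 53 of 43713 sites.

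The data come from ChIP-seq with an antibody against GR in stable lines developed for the study from U-2OS, a human osteosarcoma line. One is called the GR cell. The other, called the MR/GR cell, co-expresses the mineralocorticoid receptor (MR) and GR. Each line was exposed for 2 hr to 100 nM dexamethasone or to DMSO as vehicle. For each of these 4 groups the authors deposited 3 peak lists, which give positions without heights or scores. Each receptor combination rests on 1 line, MR and GR levels were not measured here, and nothing in the labels ties the 3 lists of a group to separate cultures, so their spread may be technical.

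GR and MR are steroid receptors that bind DNA as ligand-activated transcription factors. They recognise closely related hormone response elements, and dexamethasone is a synthetic glucocorticoid. GR often binds in clusters of sites spread over enhancers far from promoters. Of the genes that name the windows, CD180 encodes a Toll-like receptor homologue known from B cells, and SULF2 an extracellular sulfatase that trims sulfate groups from heparan sulfate. HMGA2 encodes an architectural chromatin protein of embryonic tissue that is re-expressed in many tumours, and ALPK2 an alpha-kinase. The files hold no expression data, so no site is tied to the activity of a gene.

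The windows were chosen from these lists by the presence of a GR-cell site and its absence from the MR/GR lists, so the contrast between the lines is given as a description, with no test. The chosen sites were ranked by the number of dexamethasone peaks of either line within 10 kb, among the 15056 sites that all 3 GR-cell lists and none of the MR/GR lists held. The CD180, SULF2, HMGA2 and ALPK2 sites ranked 1, 2, 4 and 5, with 27, 20, 19 and 19 such peaks. Rank 3 is a chromosome X site outside these windows, with 20 peaks, and the next site below, at rank 6 on chromosome 11, had 18. The windows were given as densely bound without a measure of density, so this count is the one used here. It includes MR/GR-cell peaks, and the chosen sites rank near its top. Bound neighbours within 10 kb were thus favoured by the choice itself.

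Gene positions in hg19 were not used here, so sites are placed by coordinates and by distance from the chosen site. RefSeq's table for GRCh38.p14 was used for the order of genes only. There the nearest protein-coding neighbours are MAST4 and PIK3R1 for CD180, NCOA3 and PREX1 for SULF2, MSRB3 and LLPH for HMGA2, and NEDD4L and MALT1 for ALPK2. That table puts ALPK2 on the minus strand, for which upstream lies at higher coordinates, so the low-coordinate end of its window is not upstream in that sense.

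With dexamethasone, the 4 windows together held 45, 41 and 33 peaks in the 3 GR-cell lists and 14, 27 and 22 in the 3 MR/GR-cell lists. Every MR/GR list was below every GR-cell list, with means of 39.7 ± 6.11 and 21 ± 6.56 peaks (SD, n = 3 lists each), a 1.89-fold difference. The treated lists themselves ran from 26191 to 37650 peaks in the GR cell and from 3713 to 10459 in the MR/GR cell. Read depth is unknown, so an unlisted peak may lie under the calling threshold.

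In the CD180 window the GR-cell lists had 11, 10 and 10 peaks and the MR/GR lists 4, 5 and 4. The ALPK2 window had 8, 9 and 6 against 2, 3 and 2. In both, no MR/GR list reached any GR-cell list. The SULF2 window had 6, 6 and 5 against 3, 6 and 4, and the HMGA2 window 20, 16 and 12 against 5, 13 and 12, so in these the lists of the lines overlapped. Counts therefore separated the lines in 2 of 4 windows. Over the genome, 91.9% of 1574 tiles of 277.5 kb (the mean length of the windows) with at least 17 GR-cell peaks, as many as the sparsest window, had every MR/GR list below every GR-cell list. Non-overlapping counts were thus the rule among tiles with this many peaks, while in SULF2 and HMGA2 the lists overlapped. The tiles were picked by GR-cell peaks alone, which favours lower MR/GR counts in them. The HMGA2 window, at 410 kb, is also longer than a tile.

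Set against the length of each list, the windows took more of the MR/GR cell's peaks than of the GR cell's. They held 12, 13.3 and 12.6 of every 10000 peaks in the GR-cell lists and 37.7, 25.8 and 33.0 in the MR/GR lists, a 2.55-fold higher mean in the MR/GR cell (32.2 ± 6.0 against 12.6 ± 0.7, SD, n = 3 lists each). By window the ratio of means was 2.16 for CD180, 3.64 for SULF2, 2.91 for HMGA2 and 1.54 for ALPK2. The lists of the lines did not overlap on this scale in CD180, SULF2 and HMGA2. They did overlap in ALPK2, at 2.1, 2.9 and 2.3 against 5.4, 2.9 and 3.0. The ranking, which counted peaks of both lines, bears on this share too. Of the same 1574 tiles, 31.6% had a higher share in every MR/GR list than in every GR-cell list. Picking the tiles by GR-cell peaks works against this pattern, so the 31.6% is not a neutral background.

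**Figure D1:**
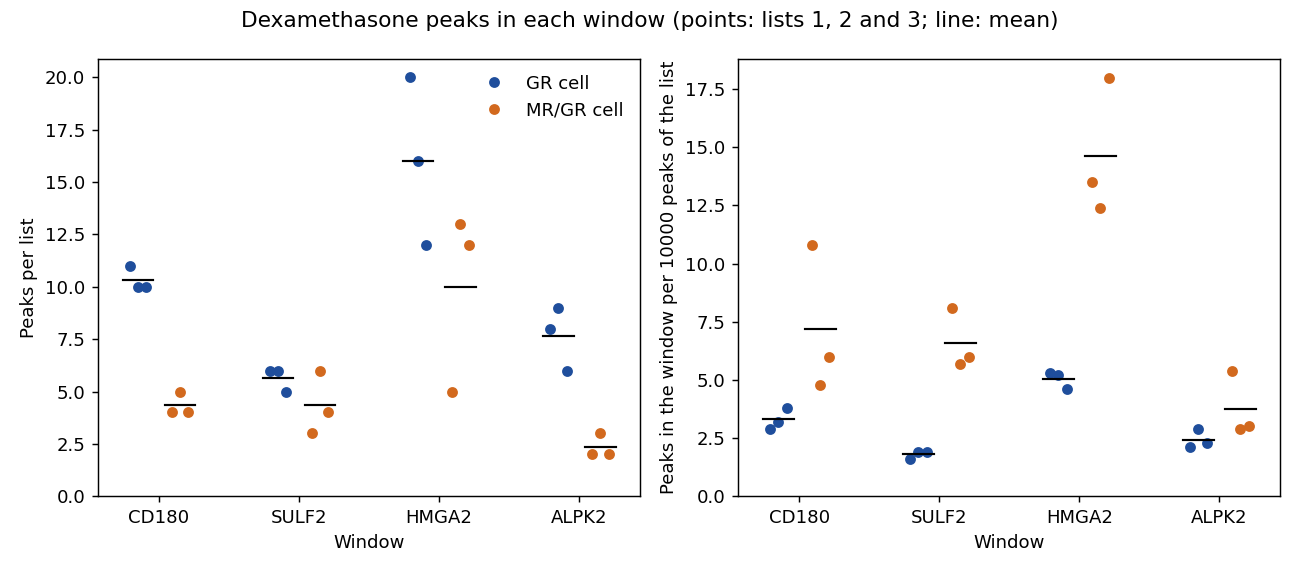
Dexamethasone peaks per list in each window, as counts (left) and per 10000 peaks of the same list (right), with points for lists 1, 2 and 3 of each line and a line at the mean. Counts are lower in every MR/GR list for CD180 and ALPK2, while the share of the list is higher in every MR/GR list for CD180, SULF2 and HMGA2.

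Sites were merged from peaks of the 6 dexamethasone lists that overlap by at least 1 bp. A GR-cell site is one listed in at least 2 of 3 GR-cell lists. It is called kept when at least 2 of 3 MR/GR lists also have it and absent when none does. Of the 53 sites, 39 were GR-cell sites, and 18 of these were kept, 3 were in 1 MR/GR list and 18 were absent. The kept share was 46.2% (Wilson 95% interval 31.6 to 61.4), where over the whole genome 17.9% of 30365 GR-cell sites were kept. The absent share was likewise 46.2%, where the whole genome had 71.7%. The intervals cover counting error over sites only. Without the 4 chosen sites, 18 of 35 were kept (51.4%). The choice bears on these shares in both directions: each window had to hold an absent site, and the ranking favoured kept neighbours. Of the 18 kept sites, 11 lay within the 10 kb that it counted.

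Among the 33 sites of the windows in 3 of 3 GR-cell lists, 16 were kept (48.5%) and 14 were absent (42.4%), where the whole genome had 22.5% and 65.6%. All 6 lists shared 13 of the 33 sites: 4 in CD180, 2 in SULF2, 5 in HMGA2 and 2 in ALPK2. Over the genome they shared 3017 of the 22935 sites in 3 of 3 GR-cell lists. The choice of windows bears on this share too. List by list, 14, 20 and 19 of the 39 GR-cell sites were in MR/GR lists 1, 2 and 3, or 35.9%, 51.3% and 48.7%. Over the genome these lists had 11.4%, 25.4% and 19.6% of GR-cell sites. List 1, the shortest, was lowest on both counts.

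**Figure D2:**
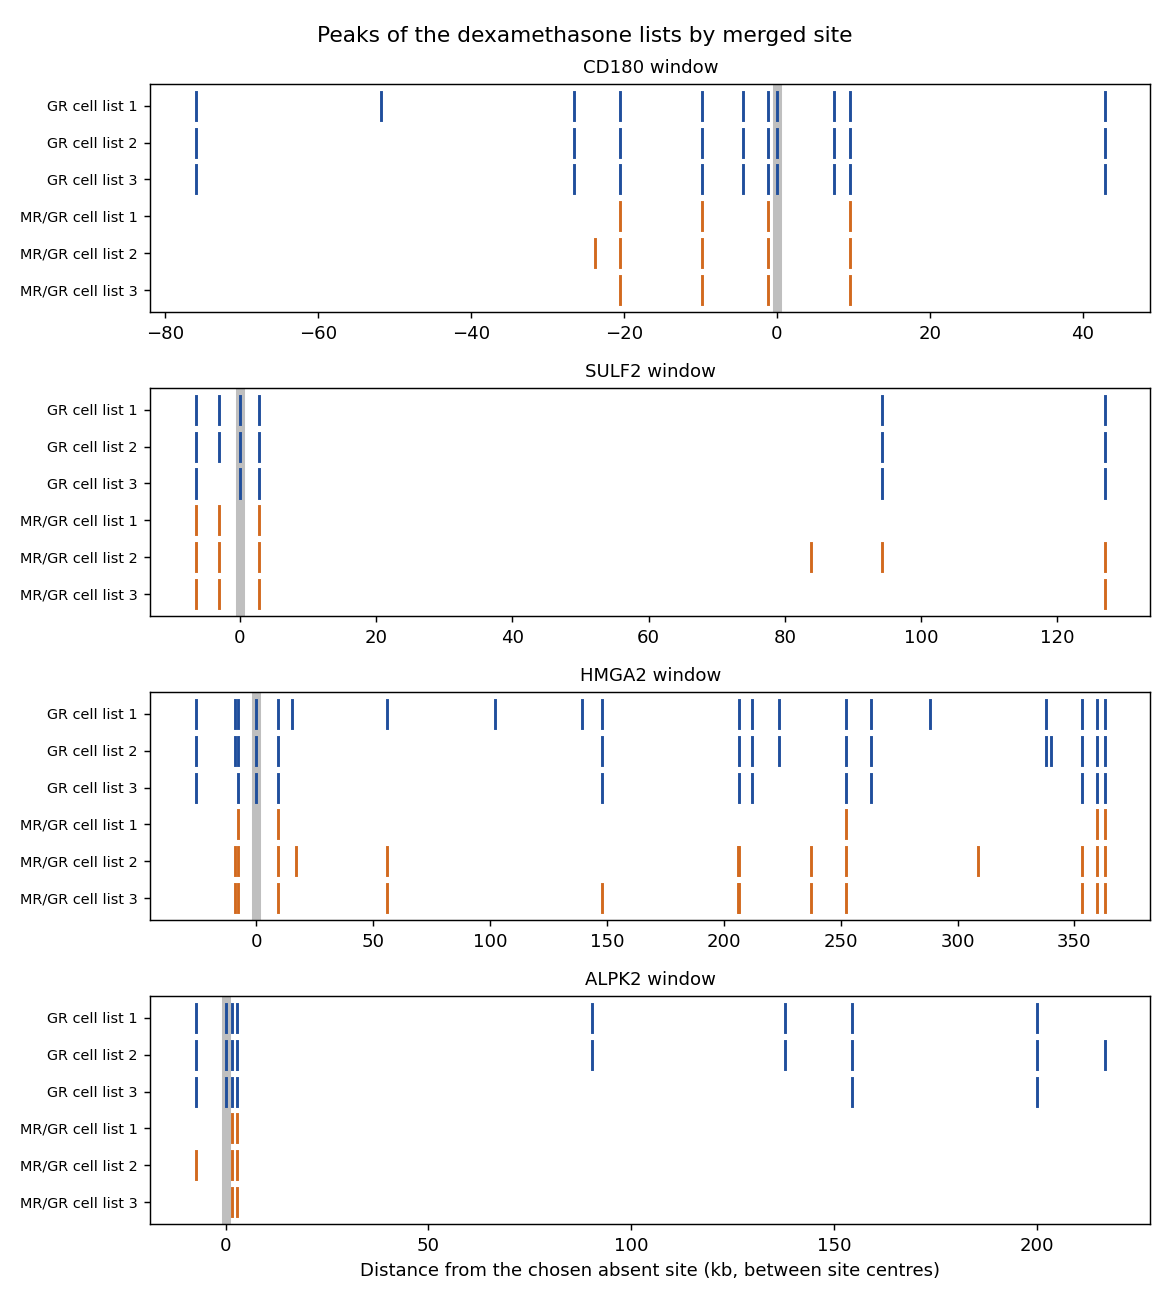
Each tick is a merged site in one of the 6 dexamethasone lists (rows), placed by its distance in kb from the chosen absent site of its window, which the grey band marks at 0. The chosen sites have ticks in all 3 GR-cell lists and none in the MR/GR lists, and at each locus a site at most 8.01 kb away has ticks in all 6 lists.

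The CD180 window had 12 sites, of which 10 were GR-cell sites, all in 3 of 3 lists. Of these, 4 were kept and 6 were absent, and each kept site was in all 6 lists. The chosen site, 66554348 to 66554771 on chromosome 5, had 5 other GR-cell sites within 10 kb. The nearest of them, 66553293 to 66553716, lay 1.1 kb below it between centres and was in all 6 lists.

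Kept and absent sites were interspersed along this cluster. In coordinate order, with distances from the chosen site, they were absent at 66527888 (26.5 kb below), kept at 66533888 (20.5 kb below) and at 66544502 (9.8 kb below), absent at 66549987 (4.4 kb below), kept at 66553293 and absent at the chosen site. Above it, 66561813 (7.5 kb) was absent and 66563991 (9.6 kb) was kept. Each of these 8 sites was in 3 of 3 GR-cell lists, and each was in either all 3 or none of the MR/GR lists. No GR-cell site in this run was seen in only some MR/GR lists.

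The remaining absent sites of the CD180 window stood alone: 66478334, 76.0 kb below the chosen site, and 66597209, 42.9 kb above it. Both were in 3 GR-cell lists with no other GR-cell site within 10 kb. A site at 66502699 was in GR-cell list 1 only. At 66530574, between an absent and a kept site, a peak was in MR/GR list 2 only, the longest list of that line.

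The SULF2 window had 7 sites, and its chosen site, 46336984 to 46337412 on chromosome 20, was the only absent one among 6 GR-cell sites. It lay inside a tight group. The sites at 46330504 (6.5 kb below) and 46339780 (2.8 kb above) were in all 6 lists, and 46333904 (3.1 kb below) was in GR-cell lists 1 and 2 and in all 3 MR/GR lists. Each of the 4 sites of this group had 20 dexamethasone peaks within 10 kb. The middle site at 46333904 was thus in more MR/GR lists than GR-cell lists, beside a neighbour that no MR/GR list held.

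Away from that group, the SULF2 window had 2 GR-cell sites, both in 3 of 3 lists. The site at 46464032, 127.0 kb above the chosen one, was kept in MR/GR lists 2 and 3, and the site at 46431142, 94.2 kb above, was in MR/GR list 2 only. A peak at 46420829 was in MR/GR list 2 and in no GR-cell list.

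The HMGA2 window is the longest, at 410 kb, and had 25 sites in several groups. Of its 15 GR-cell sites, 8 were kept, 6 were absent and 1, at 66181487, was in MR/GR list 3 only. The chosen site, 66033503 to 66033938 on chromosome 12, had 3 GR-cell neighbours within 10 kb, all kept. The sites at 66025488 (8.0 kb below) and 66042863 (9.4 kb above) were in all 6 lists, and 66024257 (9.3 kb below) was in GR-cell lists 1 and 2 and MR/GR lists 2 and 3. At 26.0 kb below, 66007511 was absent, with 3 GR-cell lists.

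A middle group of the HMGA2 window lay 205.9 to 262.8 kb above the chosen site and was mixed. The site at 66285705 was in all 6 lists, and 66240154 was in 3 GR-cell lists and in MR/GR lists 2 and 3. Beside the latter, 66245547 (3 GR-cell lists) was absent, as were 66256911 (GR-cell lists 1 and 2) and 66296258 (3 GR-cell lists).

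At the upper end of the HMGA2 window, 3 sites in a row were kept. The sites at 66393312 and 66396609 were in all 6 lists, and 66386871 was in 3 GR-cell lists and in MR/GR lists 2 and 3. These 3 sites each had 17 dexamethasone peaks within 10 kb, close to the 19 of the chosen site, and none was absent. That count includes the MR/GR peaks of the kept sites themselves. Counted over GR-cell sites alone, each had 2 others within 10 kb and the chosen site had 3. At 66371203, 15.7 kb below this group, a site of GR-cell lists 1 and 2 was absent.

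The HMGA2 window also held 3 sites that the MR/GR cell had in 2 lists and the GR cell had in fewer. Each was in MR/GR lists 2 and 3: 66239421 and 66270726, in no GR-cell list, and 66089404, in GR-cell list 1. The first lay 798 bp from the kept site at 66240154. Over the genome 334 of the 5965 sites in at least 2 MR/GR lists were in no GR-cell list. The other 3 windows had none, but CD180, SULF2 and ALPK2 held only 4, 4 and 2 sites in at least 2 MR/GR lists. With so few, their lack of such sites does not set HMGA2 apart. Peaks of MR/GR list 2 alone lay at 66050680 and 66342481. A further 5 sites were in 1 GR-cell list only: 66048919, 66135452, 66172917 and 66321971 in list 1 and 66373688 in list 2.

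The ALPK2 window had 9 sites and the lowest kept share, with 2 of 8 GR-cell sites kept, 5 absent and 1 in MR/GR list 2 only. The chosen site, 56121231 to 56121657 on chromosome 18, lay 1.6 kb below 56122783 and 2.7 kb below 56123897, both in all 6 lists. On its other side, 7.4 kb below, 56113853 was in 3 GR-cell lists and in MR/GR list 2.

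The rest of the ALPK2 window lay far from that group and had no MR/GR peak at all. The sites at 56275578 (154.4 kb above the chosen site) and 56321269 (200.1 kb) were in 3 GR-cell lists, and 56211559 (90.3 kb) and 56259177 (137.9 kb) in GR-cell lists 1 and 2. A last site, 56338116, was in GR-cell list 2 only. None of these had another GR-cell site within 10 kb.

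Neighbours within 10 kb of the chosen sites and sites farther off differed in how often they were kept. Within 10 kb, 11 of 14 GR-cell sites were kept, 1 was in 1 MR/GR list and 2 were absent, both in CD180. These are the sites that the ranking counted. Farther away, 7 of 21 were kept (33.3%, Wilson 95% interval 17.2 to 54.6) and 12 were absent (57.1%). The farther sites, which the ranking did not count, thus lay nearer to the genome-wide shares of 17.9% and 71.7%. The interval of their kept share includes 17.9%. It covers counting error only, and the sites of a window are not independent. By window, 1 of 4 farther sites was kept in CD180, 1 of 2 in SULF2, 5 of 11 in HMGA2 and 0 of 4 in ALPK2.

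Distances were measured as well, and the ranking bears on them, since it counted MR/GR peaks within 10 kb. The 18 absent sites of the windows lay 1.05 to 151.7 kb from the nearest site held by at least 2 MR/GR lists, with a median of 12.2 kb, and 8 of the 18 (44.4%) lay within 10 kb. Over the genome the median was 171.8 kb, and 5.7% of 21743 absent sites lay within 10 kb. Without the chosen sites and those within 10 kb of them, 12 absent sites were left, with a median of 25.0 kb and 2 of 12 (16.7%) within 10 kb. In ALPK2 the 4 absent sites outside the dense group were 87.64 to 151.72 kb from such a site. The chosen sites themselves lay 1.05 (CD180), 2.82 (SULF2), 8.01 (HMGA2) and 1.57 kb (ALPK2) from the nearest one. Of the 15056 ranked sites, 17 (0.113%), 159 (1.06%), 638 (4.24%) and 60 (0.399%) were as close, a closeness that the ranking favoured.

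Crowding was then counted over GR-cell sites alone, without MR/GR peaks. In the windows, 2 of 14 GR-cell sites with no other within 10 kb were kept (14.3%, Wilson 95% interval 4.01 to 39.9), close to the 16.2% of 21097 such sites over the genome. Of those with at least 1 other, 16 of 25 were kept (64%, 44.5 to 79.8), against 21.6% of 9268 over the genome. Genome-wide the kept share was 20.5%, 25.2%, 34.2% and 50% with 1, 2, 3 and at least 4 others. The window shares at these counts were 60%, 87.5%, 50% and 50%, on 5, 8, 10 and 2 sites. Neighbouring sites share their locus and are not independent, and the higher share among crowded sites was in part fixed by the choice described above.

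**Figure D3:**
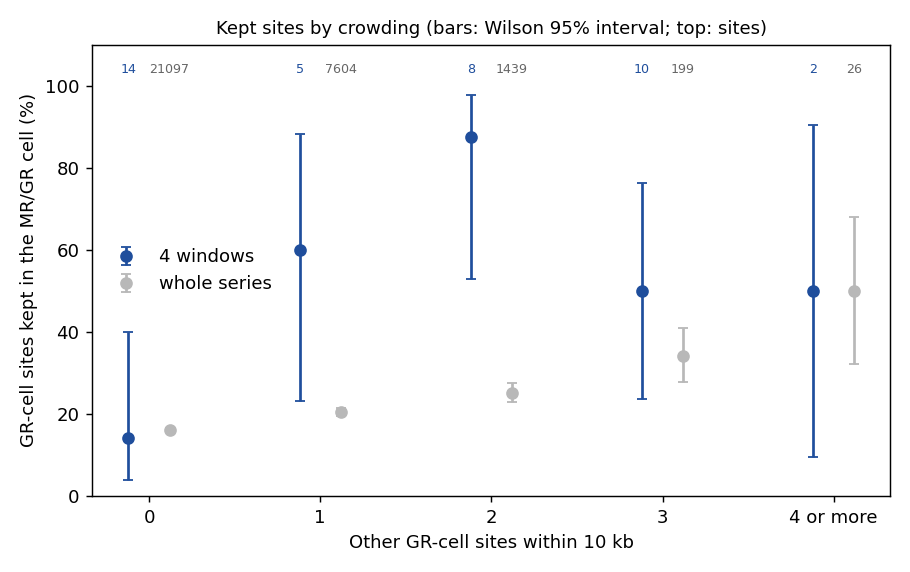
Share of GR-cell sites kept in the MR/GR cell (y axis, %) by the number of other GR-cell sites within 10 kb (x axis), for the 4 windows and the whole series, with Wilson 95% intervals and the number of sites on top. The lone sites of the windows, 14.3% kept, sit beside the genome's 16.2%. The window points with 1, 2 and 3 neighbours lie above the genome's points. They rest on 5, 8 and 10 sites that share loci chosen from these lists, so the intervals do not test a difference. With at least 4 neighbours both are at 50%.

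By the count of dexamethasone peaks that ranked the chosen sites, 66 GR-cell sites of the genome had at least 19 within 10 kb. Of these, 71.2% were kept and 12.1%, or 8 sites, were absent. The windows held 9 of the 66, with 5 kept and 4 absent, and those 4 are the chosen sites. This count includes MR/GR peaks, a kept site's own among them, so kept sites reach 19 more easily and the shares say little about crowding itself. Counted over GR-cell sites alone, as above, 52.8% of the genome's sites with 3 others within 10 kb and 34.6% of those with at least 4 were absent. The SULF2, HMGA2 and ALPK2 chosen sites had 3 others each and the CD180 one had 5.

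Peaks of both lines at a site were close, as merging by overlap requires. Over the 13 sites in all 6 lists, the mean centres of the lines differed by 1 to 70 bp, with a median of 13 bp. The widest gaps at other sites were 90 bp at 66089404 and 71 bp at 66181487, each with 1 list of one line. The 3 GR-cell centres of a site spanned a median of 34 bp and the 3 MR/GR centres a median of 50 bp, wider in the MR/GR cell at 11 of the 13. These spans were not measured over the genome's 3017 sites in all 6 lists. They are therefore not shown to be particular to these windows. Peaks had 1 width per list, apart from 1 peak in the treated lists, 354, 366 and 424 bp in the GR cell and 280, 284 and 304 bp in the MR/GR cell. The median width at kept and absent sites was therefore equal in each GR-cell list and carried no information about binding.

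For comparison, windows of 277.5 kb were centred on the most crowded sites found in all 6 lists, on chromosomes 11 (114033539) and 6 (35690222), and on the chromosome X site of rank 3 (106926315). Kept GR-cell sites were 10 of 17, 10 of 14 and 4 of 10 there, and absent ones 5, 3 and 4. The CD180 window had the same kept count as the X window, 4 of 10, with 6 absent in place of 4. ALPK2, with 2 of 8, was lower than all 3 of these windows, while HMGA2, with 8 of 15, and SULF2, with 4 of 6, lay between them. The chromosome 11 and 6 windows were chosen for a kept site with many peaks of both lines nearby. The X window and the 4 windows were chosen for an absent site. The contrast between them was therefore in part fixed by the choice. With 6 to 17 sites per window the intervals are wide, for example 7.15 to 59.1% for ALPK2 and 36 to 78.4% for chromosome 11, and the differences were not tested.

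**Figure D4:**
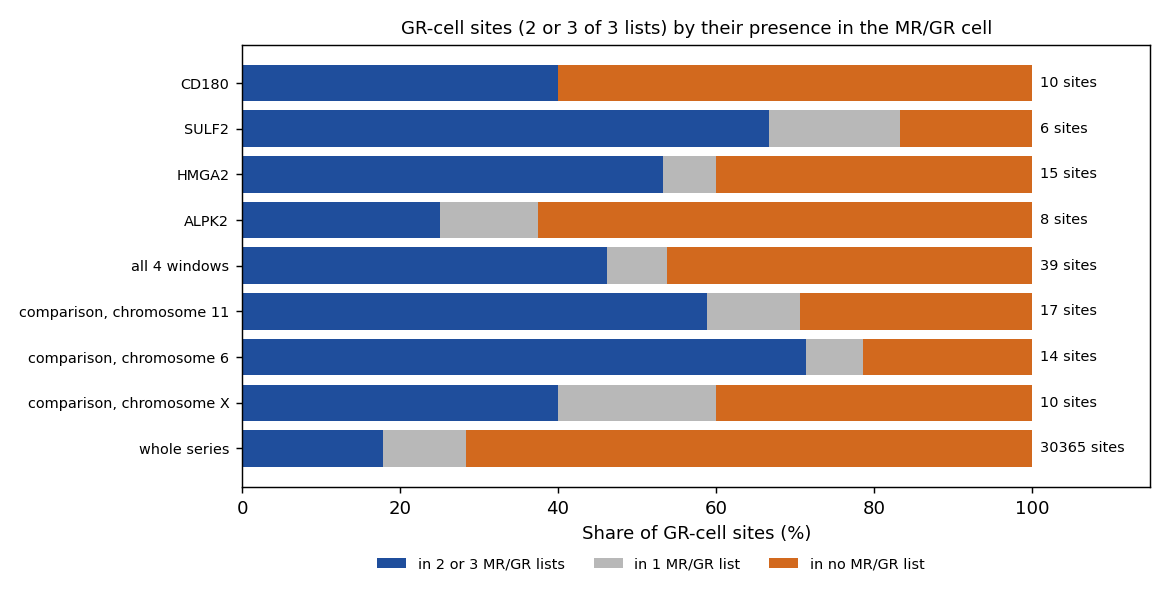
GR-cell sites of each window, of the 3 comparison windows and of the whole series (x axis, % of sites) split into those in 2 or 3, in 1 or in no MR/GR list, with the number of sites at the right. Kept shares run from 25% in ALPK2 to 66.7% in SULF2, and all 4 windows lie above the 17.9% of the whole series.

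Without ligand no peak was called in any of the 4 windows, in either line. The vehicle lists are short, with 588 peaks over the 3 GR-cell lists and 183 over the 3 MR/GR lists. A count of 0 allows shares of up to 0.51% and 1.64% of them. Those limits exceed the shares of the treated lists (0.12%, 0.133% and 0.126% in the GR cell and 0.377%, 0.258% and 0.33% in the MR/GR cell), so ligand-free binding at a similar share was not detectable in lists of this length. The vehicle peak nearest to a chosen site was 0.36 Mb away, in the GR cell on chromosome 12.

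The next sites beyond the window limits were in no MR/GR list on both sides of CD180, SULF2 and HMGA2, and in all 6 lists on both sides of ALPK2. Over the genome, 71.7% of GR-cell sites were in no MR/GR list, so absence at most of these few sites sets no window apart. Below the CD180, SULF2 and HMGA2 windows the next sites, 43.4, 70.1 and 38.2 kb outside the limits, were in 2, 3 and 3 GR-cell lists but none of the MR/GR ones, and above them the next sites, 64.1, 28.1 and 20.4 kb outside, were likewise in 3 GR-cell lists alone. The next sites around ALPK2, 14.7 kb below and 96.9 kb above, were in all 6 lists. The outermost sites inside the limits lay 5.8 to 90.7 kb from them, at 46464032 and 46330504 in the SULF2 window.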

How the data were processed

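GR ChIP-seq peak lists of 4 immunoprecipitation samples, 3 lists each, were used, and 2 input samples were not analysed here. The deposited lists give a chromosome, start and end per peak. Per the submitters' processing notes, the build was hg19 and the tools included HOMER 4.8.3, Picard 1.115, SAMtools 1.3.1, Bowtie and Trim Galore 0.4. Their roles and settings are not given in the sources used here. Each list is named as set against input. The input of the GR cell is labelled with 100 nM dexamethasone and that of the MR/GR cell with 0. If each line was set against its own input, that control differed in treatment between the lines. The calling threshold decides what is listed, and wider peaks overlap more easily.

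Groups came from the labels and list numbers from the deposited lists. Windows, members and lists were chosen with earlier results of these data known. Sites were merged over the whole genome with Python 3.11.15 and checked against bedtools 2.31.1, and shares have Wilson 95% intervals (SciPy 1.17.1). On 19479 simulated sites, 100% got the right lists. Neighbours there were too far apart to merge and peaks of the same site always overlapped. The simulation thus checked the code and not how well merging separates real sites. Named sites were those in at least 2 GR-cell lists or in any MR/GR or vehicle list, 46 in all. Sites of 1 GR-cell list, planned as counts only, are also given by position. Coordinates count from 1. Alternatives were other overlap criteria, list numbers and window limits, the chosen sites left out, and each dexamethasone list left out. No sequence is printed, since a genome of hg19 was not used here.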

Additional observations from a re-analysis of the deposited data

How the results depend on the processing

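Of 127 alternatives over the windows, 125 were counted as kept: counts, mean peak counts and distances within 1.5 times, the kept share within its interval, and peaks per 10000 of a list within 1 SD. Some of these could not move. The widths were constant within lists, and leaving out a list of one line cannot change the sites held by the other. Sites held by the MR/GR cell went from 21 to 14 without MR/GR list 2 or list 3, at the limit of 1.5 times. The GR cell's peaks per 10000 went from 12.6 to 10.9 with the windows narrowed by 20 kb. The median distance of absent sites went from 12.2 to 25.0 kb without the chosen sites and those within 10 kb of them, an alternative chosen after seeing the data. Of 40 alternatives for mean peak counts, 3 moved by more than 1 SD: SULF2 in the GR cell from 5.67 to 4.67 (narrowed windows), and ALPK2 from 7.67 to 9.67 in the GR cell and from 2.33 to 3.33 in the MR/GR cell (widened windows). The 92 alternatives for the 46 named sites, which were other overlap criteria only, left the difference in lists between the lines as it was. With each dexamethasone list left out in turn, the kept share ranged from 35.9% to 48.5%, and 35.9% came without MR/GR list 2 or list 3, when list 1, the shortest, was one of both lists required. The number of sites held by both lines was 14 then and 18 without MR/GR list 1. With 3 of 3 lists required in both lines, 13 of 33 were kept (39.4%), and with 1 list, 22 of 47 (46.8%). The lines were compared without a test, so the list numbers were not used to pair them. Lists without heights or read depth leave a weak peak and no peak indistinguishable.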
